A study of Homo sapiens with 16 samples.

Results

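BCL11A, LIN28B, ZBTB7A, SOX6, HIC2, IGF2BP1, IGF2BP2 and IGF2BP3 are human genes known for their part in keeping fetal globin on or shutting it off, and they are described here across a time course of phorbol ester treatment. They were chosen by name, as 8 of the 35052 genes with reads assigned in the deposited tables, and all 8 had enough reads to be tested. The cells were K562, an established line from a chronic myeloid leukaemia that makes embryonic and fetal globins. K562 cells can be driven toward a megakaryocyte-like state by phorbol 12-myristate 13-acetate (PMA), an activator of protein kinase C. RNA depleted of ribosomal RNA was sequenced from untreated cells (0 h) and at 7 times from 0.5 to 72 h with 25 nM PMA, 2 libraries per time point (16 in all). The culture medium was renewed after 24 and 48 h. All groups are the same line with no genetic change named in the labels, and the 0 h libraries are the only untreated ones. The labels do not say whether the paired libraries came from separate cultures, so p-values measure the spread between these libraries, which may be technical.

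The libraries held 27285773 to 54056289 estimated reads. Of 8 erythroid marker genes, all were above 3 reads at 0 h, with a summed level (in TPM, reads per transcript length as a share of the library) of 409.5 to 541 TPM untreated and 251.2 to 278.6 TPM after 72 h. The summed level of 8 megakaryocyte markers was 47.97 to 80.8 TPM untreated and 1764 to 1780 TPM after 72 h. THBS1 (3.53 to 4593 CPM, counts scaled to library size) and ITGB3 (1.52 to 1092 CPM) rose most among them, while ITGA2B (57.75 and 61.91 CPM) and GP1BB were not called at 72 h, and ITGA2B fell at 24 h (log2 -2.14, adjusted p = 1.96e-09). The GP1BB libraries lay far apart, at 305 and 1066 reads untreated and 0 and 1869 after 72 h, so whether it changed was not resolved. PF4 and GP9, which define platelets and mature megakaryocytes, had at most 1 read in any library. The 8 monocyte and macrophage markers summed to 232.8 to 250.5 TPM untreated and 325.7 to 395.3 TPM after 72 h, with CSF1R and MPO at 3 reads or fewer at 0 h. The 6 B cell markers summed to at most 7.67 TPM in any library, and 6 T and NK cell markers to 25.5 to 37.6 TPM untreated and 69.4 to 83.2 TPM after 72 h. The part of these marker changes in the results below was not tested. In bulk RNA, fewer cells of a type and less RNA per cell cannot be told apart.

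The switch from fetal to adult haemoglobin is enforced in erythroid cells by repressors that act on the gamma-globin genes. BCL11A and ZBTB7A are zinc-finger repressors that bind the gamma-globin promoters, and SOX6 works with BCL11A and also represses the embryonic epsilon-globin gene. HIC2 is a repressor that silences BCL11A in fetal erythroid cells. LIN28B is an RNA-binding protein of fetal cells that blocks the maturation of the let-7 microRNAs and lowers BCL11A protein output. The 3 IGF2BP proteins bind and stabilise mRNAs, are typical of fetal and tumour cells, and are classic let-7 targets, so that loss of LIN28B is known to release let-7 against them.

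Because let-7 links several of these genes, its seed and the sites that match it are shown first. The mature sequences come from RefSeq on GRCh38.p14, and the capitals mark the seed, bases 2 to 8. All 9 let-7 family sequences compared (let-7a to let-7g and let-7i, and miR-98) carry the same seed, and the following 3 show it.
hsa-let-7a-5p: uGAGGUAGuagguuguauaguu
hsa-let-7i-5p: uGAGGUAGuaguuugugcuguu
hsa-miR-98-5p: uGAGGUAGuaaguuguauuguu

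The seed pairs with CTACCTC, and CTACCTCA adds the A that faces the first base of the microRNA. Each 3′ UTR of the transcript with the most reads was searched for these letters on the transcript's own strand, in GENCODE 29 sequences on GRCh38. Of the 8 genes, 5 held CTACCTCA, which is inside every count of CTACCTC, and these are the 8 sites, with the match in capitals.
LIN28B site 1: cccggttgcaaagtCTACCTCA
LIN28B site 2: tttacagcaaaaggCTACCTCA
HIC2 site 1: aggaccccctccccCTACCTCA
IGF2BP1 site 1: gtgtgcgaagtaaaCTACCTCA
IGF2BP1 site 2: agcagtgctagtaaCTACCTCA
IGF2BP1 site 3: tataaatggattaaCTACCTCA
IGF2BP2 site 1: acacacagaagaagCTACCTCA
IGF2BP3 site 1: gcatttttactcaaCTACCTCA

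The LIN28B sites lie at chr6:105078813-105078834 and chr6:105081422-105081443 on the plus strand, and the HIC2 site at chr22:21450883-21450904 on the plus strand. The IGF2BP1 sites lie at chr17:49051062-49051083, chr17:49053699-49053720 and chr17:49054353-49054374 on the plus strand. The IGF2BP2 site is at chr3:185644220-185644241 and the IGF2BP3 site at chr7:23311795-23311816, both on the minus strand. Counting the shorter match, LIN28B, HIC2 and IGF2BP1 each held 4 and IGF2BP2 and IGF2BP3 each held 1. BCL11A, ZBTB7A and SOX6 held 0, and for BCL11A only the short transcript with the reads was searched, not the full-length mRNA. For ZBTB7A the searched GENCODE 29 version had 5422 nt, while the version with the deposited reads had 6437 nt. The searched versions for LIN28B, HIC2, IGF2BP1 and IGF2BP3 also differed in length from those with the reads. Among 12417 protein-coding transcripts with a 3′ UTR of at least 50 nt, 10.3% held CTACCTC and 3.99% held CTACCTCA. Each of them was the transcript with the most reads of its gene, and genes with few reads over the libraries were left out. The members' 3′ UTRs were long, 1792 to 6360 nt, and among the 4358 UTRs of at least 1792 nt the shares were 20.4% and 8.21%. A match describes the letters only, and mature let-7 is not analysed here.

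**Figure D1:**
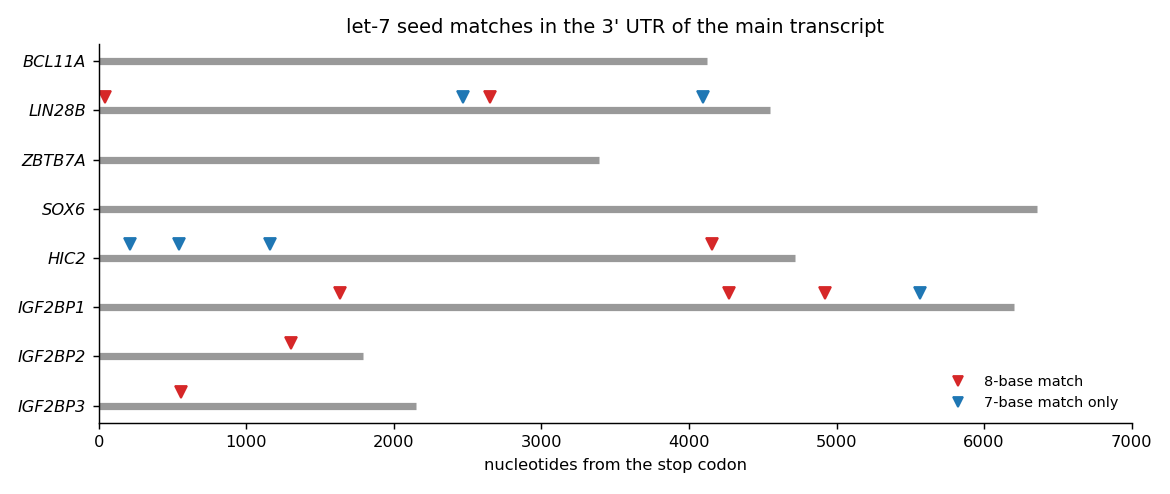
Each grey bar is the 3′ UTR of the main transcript of a gene, drawn to scale in nucleotides from the stop codon, with red triangles for the 8-base match and blue triangles for the 7-base match alone. LIN28B, HIC2 and IGF2BP1 carry 4 triangles each, IGF2BP2 and IGF2BP3 carry 1, and the bars of BCL11A, ZBTB7A and SOX6 have none.

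On GRCh38 the genes span chr2:60450520-60555154 (BCL11A), chr19:4044364-4066945 (ZBTB7A), chr11:15966449-16739591 (SOX6), chr22:21417404-21451463 (HIC2), chr17:48997412-49055650 (IGF2BP1), chr3:185643739-185825056 (IGF2BP2) and chr7:23310209-23470467 (IGF2BP3); LIN28B lies at chr6:104936616-105083332.

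Levels are compared between genes in TPM. At 0 h, IGF2BP1 stood at 113.4 ± 3.36 TPM (SD, n = 2), IGF2BP3 at 102.1 ± 18.2 and IGF2BP2 at 75.5 ± 16.1. HIC2 stood at 60.8 ± 4.96 TPM, LIN28B at 30.6 ± 7.05, ZBTB7A at 20.7 ± 2.79, SOX6 at 9.73 ± 2.41 and BCL11A at 1.47 ± 0.0513 TPM. IGF2BP1 and IGF2BP3 overlapped in their libraries, as did IGF2BP2 and HIC2, and the other neighbours in this order did not. With all transcripts summed, BCL11A was the lowest at every time point. On coding transcripts alone SOX6 (0.985 and 0.626 TPM) lay below BCL11A (1.47 and 1.40 TPM) at 6 h, and they overlapped at 24 and 48 h. The place of the IGF2BP genes rests in part on transcripts not annotated as coding. On coding transcripts alone, IGF2BP1 stood at 84.7 and 91.5 TPM untreated, HIC2 at 57.3 and 64.3, IGF2BP2 at 49.8 and 49.6, and IGF2BP3 at 52.2 and 37.5, so that HIC2 lay above both IGF2BP2 and IGF2BP3. At 6 h, with all transcripts summed, IGF2BP3 (109.8 ± 11.04 TPM) stood first, apart from IGF2BP1 (73.3 ± 1.41 TPM). On coding transcripts alone IGF2BP3 stood at 44.5 and 42.1 TPM at 6 h, below IGF2BP1 (58.6 and 53.3) and HIC2 (62.0 and 56.5). ZBTB7A then stood at 45.0 ± 1.24 TPM, LIN28B at 3.09 ± 0.188 and SOX6 at 1.88 ± 0.118. At 72 h ZBTB7A (37.8 ± 10.9 TPM) and HIC2 (34.1 ± 1.44 TPM) overlapped, and SOX6 stood at 5.23 ± 1.16 TPM. LIN28B stood at 15.5 ± 1.75 TPM, below the 25.3 TPM it had regained at 24 h.

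**Figure D2:**
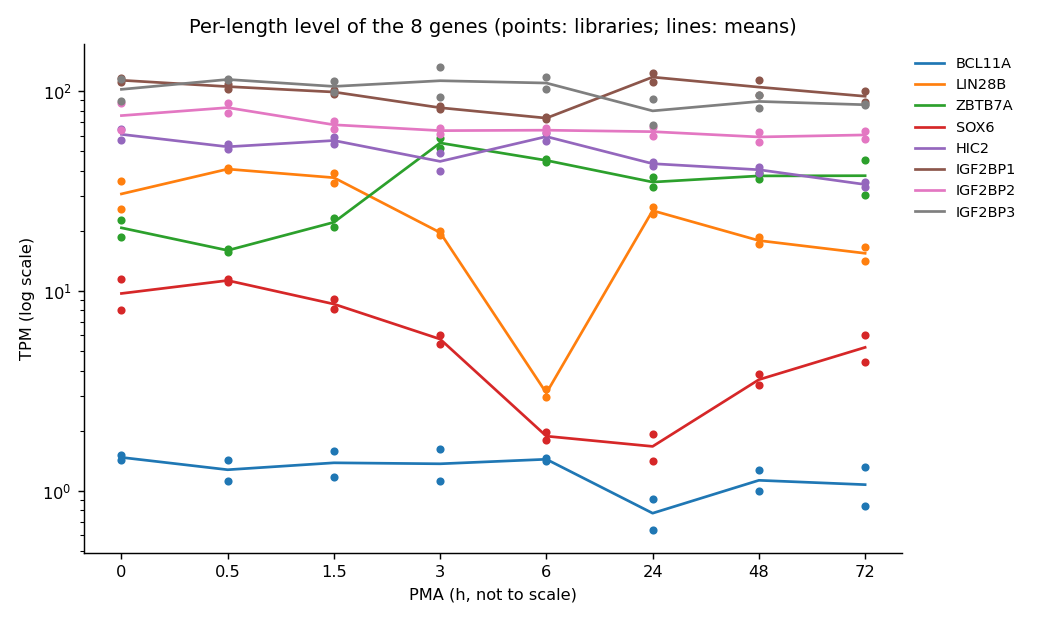
TPM, summed over all transcripts of a gene, on a log axis for each of the 8 genes at the 8 time points. Points are libraries and lines join the means. LIN28B and SOX6 drop at 6 h, ZBTB7A climbs between 1.5 and 3 h, and BCL11A stays the lowest throughout.

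Changes of a gene over time were tested on read counts, and its levels are given in CPM (reads as a share of the library size, here scaled by TMM). A gene was called at a Benjamini-Hochberg adjusted p under 0.05 over 17559 genes. All 8 genes changed over the whole course, where 82.9% of all tested genes did. Against 0 h, 0 of 8 were called at 0.5 h and at 1.5 h (0.171% and 17.1% of all genes), and edgeR gave LIN28B an adjusted p of 0.181 and 0.0853 there. The 3 h libraries gave 2 of 8 (42.0% of all genes), the 6 h libraries 6 (57.2%), the 24 h libraries 4 (58.3%), and the 48 and 72 h libraries 7 each (54.3% and 58.6%). With so many genes moving, these shares alone do not set the 8 apart from the rest of the genes. At 3 h both were higher (21.5% of all genes higher, 20.5% lower), but 1 was higher and 3 lower with libraries scaled to total counts. At 6 h 3 were higher and 3 lower (27.8% and 29.4%), but 1 and 3 with total-count scaling. At 24 h 1 was higher and 3 lower (31.7% and 26.6%), but 1 and 6 with total-count scaling. At 48 h and again at 72 h 1 was higher and 6 lower, where 30.2% and 31.7% of all genes were higher and 24.1% and 26.9% lower. With DESeq2's size factors in edgeR it was 1 higher and 4 lower at both times, and with total-count scaling 1 and 6 at 48 h and 1 and 7 at 72 h. The median log2 fold change of the 8 genes was 0.22 at 6 h, -0.15 at 24 h and -0.50 at 72 h, against 0.001, -0.01 and -0.03 over all genes. Scaling to total counts shifted these all-gene medians down, to -0.35 (6 h), -0.26 (24 h) and -0.19 (72 h). The percentages above are from TMM scaling only. Lower calls under total-count scaling, here and in the gene lists below, thus cannot be weighed against all genes. These 7 comparisons share the 0 h libraries. Between neighbouring times, 0 of 8 were called for 1.5 against 0.5 h (5.77% of all genes), 2 for 3 against 1.5 h (25.1%), 4 for 6 against 3 h (41.2%) and 6 for 24 against 6 h (56.6%). The last steps gave 3 for 48 against 24 h (15.0%) and 1 for 72 against 48 h (1.47%). Where edgeR called none, unadjusted p was under 0.05 for LIN28B and IGF2BP3 at 0.5 h (0.0143 and 0.0373), for LIN28B at 1.5 h (0.0201) and for ZBTB7A between 0.5 and 1.5 h (0.00887). DESeq2 called ZBTB7A in the last of these and none of the 8 in the other two.

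**Figure D3:**
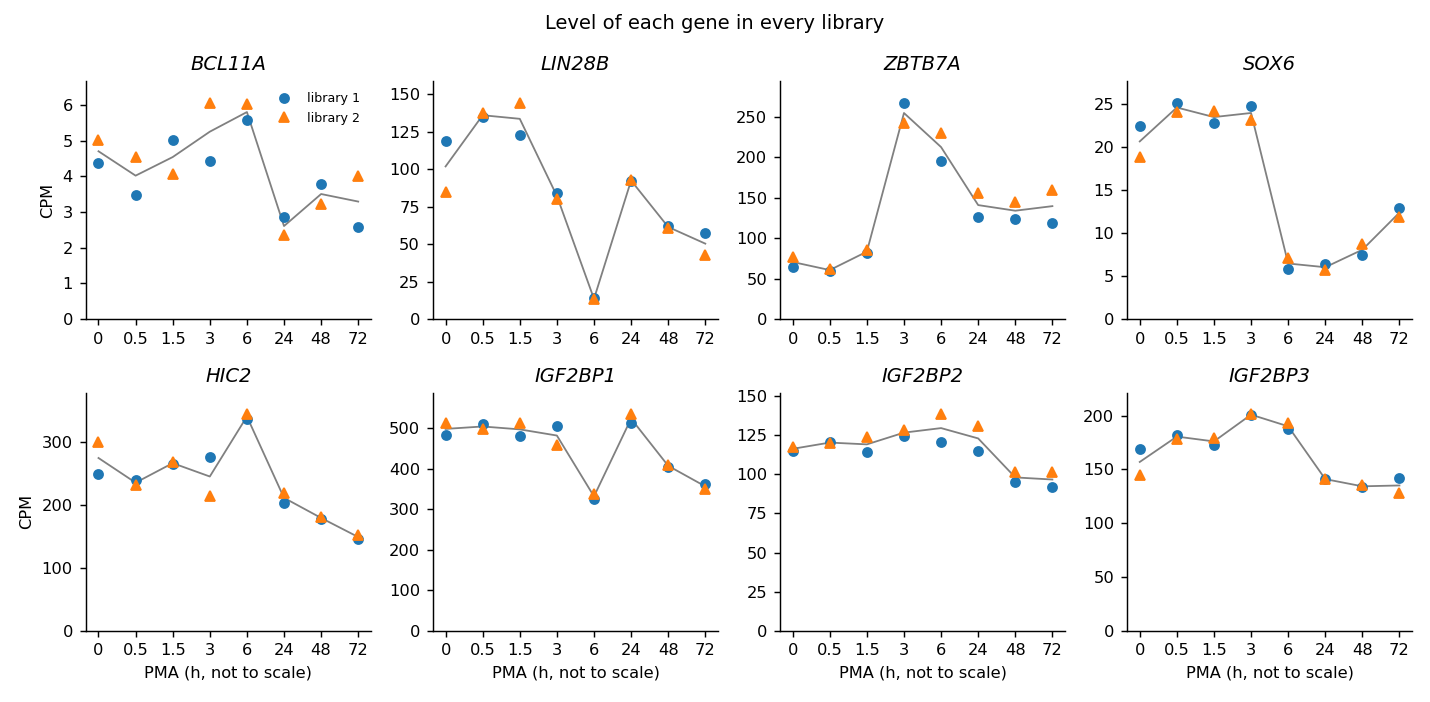
CPM of each gene in every library (circles and triangles are the 2 libraries of each time, the line joins their means), each panel on its own axis from 0. LIN28B has a sharp low at 6 h between 13.3 and 13.8 CPM, ZBTB7A a high at 3 h, and SOX6 a low from 6 to 24 h.

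LIN28B, the blocker of let-7 maturation, showed the deepest fall of the 8 genes when all transcripts of a gene are summed, and it was brief. By read counts on coding transcripts alone SOX6, below, fell further, but not in TPM. There coding SOX6 went from 6.34 and 4.05 untreated to 0.985 and 0.626 after 6 h, and LIN28B from 30.6 ± 7.05 to 3.09 ± 0.188. The LIN28B libraries read 118.5 and 85.0 CPM untreated, 134.6 and 137.1 after 0.5 h, 122.7 and 144.2 after 1.5 h, and 83.8 and 80.4 after 3 h. They then read 13.8 and 13.3 CPM after 6 h, 91.8 and 92.9 after 24 h, 62.0 and 60.8 after 48 h, and 57.6 and 43.0 after 72 h. Both 6 h libraries lay far below every other library, and the 24 h libraries lay within the range of the 0 h pair. LIN28B was 7.52-fold lower at 6 h than at 0 h (log2 fold change -2.91 ± 0.17 SE, adjusted p = 4.04e-09). Step by step it fell from 1.5 to 3 h (log2 -0.70, adjusted p = 0.00306), fell again to 6 h (log2 -2.60, adjusted p = 4.86e-08) and rose 6.83-fold by 24 h (adjusted p = 1.72e-08). At 24 h it was not called against 0 h (log2 -0.14 ± 0.15, adjusted p = 0.433), although it was with total-count scaling (log2 -0.39, adjusted p = 0.0332) and without the second 0 h library (log2 -0.36, adjusted p = 0.0482). The early values moved with the spread of the 0 h pair and with GC content. Across 9975 genes, fold changes against 0 h followed transcript GC content (Pearson r across genes, which are not replicates) at -0.76 for 0.5 h and -0.42 for 1.5 h, and LIN28B-201 has 38.1% GC. With that trend removed LIN28B was at log2 0.14 (adjusted p = 0.724) and 0.18 (adjusted p = 0.161) at these times. Without the first 0 h library LIN28B was called at 0.5 h (log2 0.68, adjusted p = 0.0104) and 1.5 h (log2 0.65, adjusted p = 0.00652), and without the second it was called lower at 3 h (log2 -0.53, adjusted p = 0.00956). LIN28B was lower at 48 h (log2 -0.73, adjusted p = 0.000943) and 72 h (log2 -1.02, adjusted p = 5.41e-05). The step from 24 to 48 h (log2 -0.59, adjusted p = 0.0172) was lost without any 1 of the 4 libraries of those times, with adjusted p from 0.069 to 0.147. LIN28B-201, the full-length coding transcript, held 88.1 to 100% of the gene's reads. Its antisense neighbour LIN28B-AS1 overlaps 67 exon bases and is not analysed here.

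The IGF2BP genes, which carry the same kind of site, moved much less. IGF2BP1 is known to protect MYC mRNA from decay and to carry ACTB mRNA. Its libraries read 484.1 and 511.9 CPM untreated and 458.6 to 513.5 through 3 h, then 324.9 and 338.2 after 6 h, 512.4 and 534 after 24 h, 405.1 and 408.8 after 48 h, and 362.7 and 349.8 after 72 h. The 6 h libraries were its lowest, and the 24 h pair had its highest mean. IGF2BP1 fell at 6 h against 0 h (log2 -0.59 ± 0.08, adjusted p = 3.72e-05), rose from 6 to 24 h (log2 0.66, adjusted p = 1.90e-05) and was lower again at 48 h (log2 -0.29, adjusted p = 0.00936) and 72 h (log2 -0.48, adjusted p = 0.000219). These sizes depended on the count source. With counts derived from TPM and scaled by length, the 6 h change was log2 -0.27 (adjusted p = 0.0343), the 72 h change log2 -0.27 (adjusted p = 0.0372) and the 48 h change log2 -0.11 (adjusted p = 0.398). The 48 h call was also lost without either 48 h library (adjusted p = 0.0611 and 0.0502).

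IGF2BP3, the paralog most tied to leukaemia, went the other way early. It read 168.9 and 145.1 CPM untreated, 200.7 and 201.3 after 3 h, 187.2 and 193.1 after 6 h, 140.7 and 141.4 after 24 h, 133.3 and 135.4 after 48 h, and 142.1 and 128.2 after 72 h. The 3 and 6 h libraries were the highest, and those of the last 3 times were all below the untreated pair. IGF2BP3 rose at 3 h (log2 0.36 ± 0.09, adjusted p = 0.00477) and 6 h (log2 0.28, adjusted p = 0.0147), but with libraries scaled to total counts these values were 0.07 (adjusted p = 0.503) and -0.09 (adjusted p = 0.383). Without the second 0 h library the 6 h value was 0.17 (adjusted p = 0.139). It fell from 6 to 24 h (log2 -0.43, adjusted p = 0.000939). The later falls against 0 h, log2 -0.22 at both 48 and 72 h (adjusted p = 0.0436 and 0.0481), were not called under most alternatives tried, and without the first 0 h library they were -0.11 and -0.10 (adjusted p = 0.335 and 0.363). The exons of IGF2BP3 overlap those of MALSU1 on the opposite strand by 1521 bases, and since the use of strand in counting is not stated, reads from the overlap cannot be told apart. IGF2BP2 stayed between 114.5 and 138.3 CPM through 24 h and lay at 94.8 and 101.2 CPM after 48 h and at 91.9 and 101.4 CPM after 72 h. The late libraries were all below the earlier ones. Its fall was small (log2 -0.25 at 48 h, adjusted p = 0.0432, and -0.27 at 72 h, adjusted p = 0.0283), and it was lost with DESeq2 (adjusted p = 0.0983 and 0.0678). The 3 genes summed to 269.0 to 312.8 TPM untreated and 231.3 to 249.2 TPM after 72 h.

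HIC2, the fetal repressor of BCL11A, first reached its highest CPM and then its lowest. In TPM its 6 h level (59.3 ± 3.92) overlapped the untreated one (60.8 ± 4.96). It read 249 and 300 CPM untreated and 213.4 to 276.8 through 3 h, then 336.9 and 343.9 after 6 h, 202.9 and 219.5 after 24 h, 177.6 and 180.9 after 48 h, and 145.2 and 152.7 after 72 h. The 6 h libraries were above all others and the 24, 48 and 72 h pairs each lay below the pair before. HIC2 rose from 3 to 6 h (log2 0.47 ± 0.12, adjusted p = 0.00508), though not without the second 3 h library (log2 0.30, adjusted p = 0.0596), and it was higher at 6 h than at 0 h (log2 0.31, adjusted p = 0.0361). With total-count scaling the latter was log2 -0.05 (adjusted p = 0.646), and without the first 0 h library 0.18 (adjusted p = 0.259). HIC2 fell from 6 to 24 h (log2 -0.69, adjusted p = 0.000241). Against 0 h it was lower at 24 h (log2 -0.38, adjusted p = 0.0139), a call lost without the second 0 h library (log2 -0.23, adjusted p = 0.143) and without the first 24 h library (log2 -0.32, adjusted p = 0.0973). It was lower at 48 h (log2 -0.61, adjusted p = 0.000546) and at 72 h (log2 -0.88 ± 0.12, adjusted p = 2.14e-05). At 72 h HIC2 was 1.84-fold below 0 h.

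BCL11A itself was measured on few reads, 89 to 186 in a library. It read 4.39 and 5.02 CPM untreated, 5.59 and 6.02 after 6 h, 2.87 and 2.35 after 24 h, 3.78 and 3.24 after 48 h, and 2.59 and 3.999 after 72 h. The 3 late pairs all lay below the untreated pair, and the 72 h pair overlapped those of 24 and 48 h. BCL11A was lower at 24 h than at 0 h (log2 -0.86 ± 0.24, adjusted p = 0.00795) and than at 6 h (log2 -1.16, adjusted p = 0.00115). Without the second 24 h library the former was log2 -0.74 (adjusted p = 0.0649). At 72 h it was not called (log2 -0.52 ± 0.24, adjusted p = 0.0795), but it was with total-count scaling (log2 -0.67, adjusted p = 0.0498) and without the second 72 h library (log2 -0.85, adjusted p = 0.0161).

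The deposited estimates placed these reads on a short transcript. Of 27 BCL11A transcripts in the tables, 17 of them protein-coding, BCL11A-219 alone held 98.4 to 100% of the gene's reads in every library. BCL11A-219, itself annotated as coding, is 4874 nt long and has 2 exons, chr2:60553216-60553632 and chr2:60541844-60546300. Its second exon shares 330 nt with the second exon of BCL11A-201 and runs 4127 nt beyond it, into what is intron in BCL11A-201. Its 3′ UTR, searched for let-7 matches above, lies there. Of its 31-base words, 80.2% are in no other BCL11A transcript and 4.0% also occur in transcripts of 3664 other genes, on either strand. The values above are thus reads assigned to a transcript with an intronic end, in total RNA. Whether they came from that transcript, from unspliced BCL11A RNA or from repeats was not tested. Whether spliced BCL11A mRNA moved was not detectable at this depth.

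ZBTB7A, the repressor of gamma-globin that acts apart from BCL11A, was the gene that rose and stayed up. It read 64.8 and 76.4 CPM untreated, 59.4 and 61.8 after 0.5 h, 81.8 and 84.9 after 1.5 h, 267.4 and 241.9 after 3 h, and 195.7 and 229.4 after 6 h. It then read 126.4 and 155.4 CPM after 24 h, 123.2 and 144.7 after 48 h, and 119.1 and 160.1 after 72 h. Every library from 3 h on was above every earlier one, and the 24, 48 and 72 h pairs overlapped. ZBTB7A rose 3.06-fold from 1.5 to 3 h (log2 1.61 ± 0.15, adjusted p = 3.14e-06) and was 3.61-fold above 0 h at 3 h (adjusted p = 4.62e-07). It was 3.01-fold above 0 h at 6 h (adjusted p = 7.42e-07), and 2.00-, 1.90- and 1.98-fold above it at 24, 48 and 72 h (adjusted p = 6.77e-05, 0.000139 and 7.10e-05). The decline from 6 to 24 h was log2 -0.59 (adjusted p = 0.00413), and it was not called without the first 24 h library (log2 -0.44, adjusted p = 0.0551). With total-count scaling ZBTB7A was higher as well, by log2 1.57 at 3 h and 0.83 at 72 h. Its main transcript ZBTB7A-201 held 86.2 to 98.4% of its reads.

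SOX6, the partner of BCL11A and repressor of epsilon-globin, fell later than ZBTB7A rose and came back in part. It read 22.4 and 18.9 CPM untreated, 24.7 and 23.1 after 3 h, 5.76 and 7.15 after 6 h, 6.36 and 5.69 after 24 h, 7.41 and 8.70 after 48 h, and 12.8 and 11.9 after 72 h. The 6 and 24 h pairs overlapped, and the 48 and 72 h pairs each lay above the pair before. SOX6 was 3.18-fold lower at 6 h (log2 -1.67 ± 0.14, adjusted p = 1.96e-07) and 3.43-fold lower at 24 h (adjusted p = 1.05e-07) than at 0 h. The step from 3 to 6 h was log2 -1.88 (adjusted p = 2.12e-07). From 24 to 72 h it rose 2.06-fold (log2 1.04, adjusted p = 0.000111), and at 72 h it was still below 0 h (log2 -0.74, adjusted p = 0.000292). The single step from 48 to 72 h (log2 0.62, adjusted p = 0.0436) was lost without any 1 of the 0.5, 1.5, 6, 24, 48 or 72 h libraries. At 3 h SOX6 was not called (log2 0.21, adjusted p = 0.213), whereas counts from TPM scaled by length gave log2 -0.46 (adjusted p = 0.0405).

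**Figure D4:**
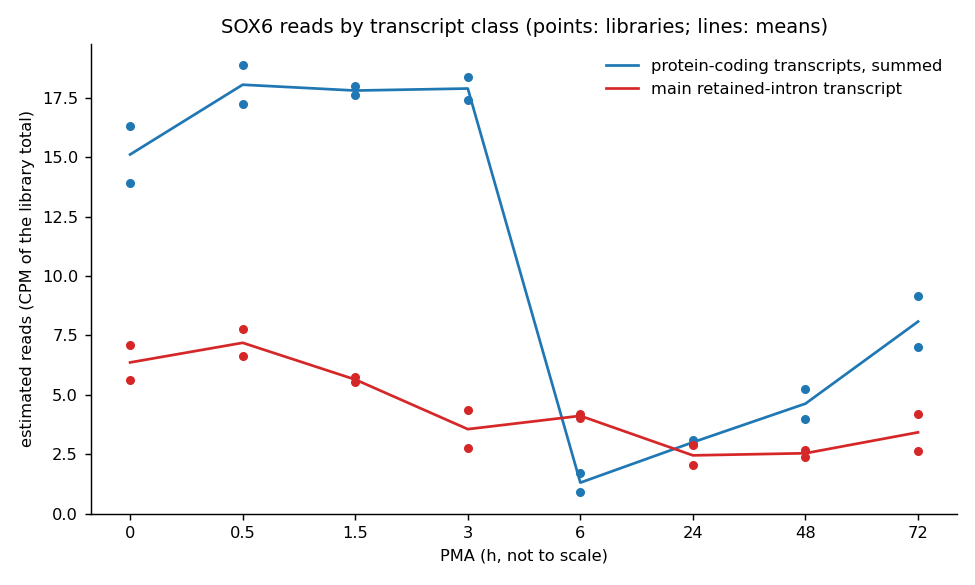
Estimated reads, scaled to the library total (CPM), on the summed protein-coding transcripts of SOX6 (blue) and on its main retained-intron transcript, SOX6-217 (red), with a point per library and lines through the means. The coding reads drop to 0.898 and 1.72 after 6 h, below the 4.03 and 4.21 of SOX6-217, and lie above them in each library from 24 h on.

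Part of the SOX6 signal was not from coding transcripts. SOX6-217, a 7224 nt transcript with a retained intron, held 12.8 to 79.2% of the gene's reads, with its highest shares at 6 h (79.2 and 68.9%). SOX6-217 carried 7.09 and 5.64 CPM (scaled to the library total, without TMM) untreated, 4.03 and 4.21 after 6 h, and 2.65 and 4.20 after 72 h. The protein-coding transcripts carried 16.3 and 13.9 CPM on that scale untreated, 0.898 and 1.72 after 6 h, 3.10 and 2.92 after 24 h, and 9.16 and 7.01 after 72 h. By these values their low at 6 h was deeper than that of the gene as a whole, but it rests on 23 and 56 reads. In a fit of protein-coding transcripts only, an alternative added after the data were seen, SOX6 changed by log2 -3.10 after 6 h (adjusted p = 3.83e-07), -2.18 after 24 h (adjusted p = 4.54e-06) and -0.79 after 72 h (adjusted p = 0.00700). In that fit it was also higher at 24 h than at 6 h (log2 0.91, adjusted p = 0.0109), where the whole gene was not called (log2 -0.11, adjusted p = 0.538). In TPM that rise was not seen: the coding transcripts stood at 0.985 and 0.626 after 6 h and at 0.935 and 0.659 after 24 h. The exons of SOX6 share 219 bases with C11orf58 on the opposite strand, which had up to 9316 reads in a library. As with MALSU1 above, reads from the overlap cannot be told apart.

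**Figure D5:**
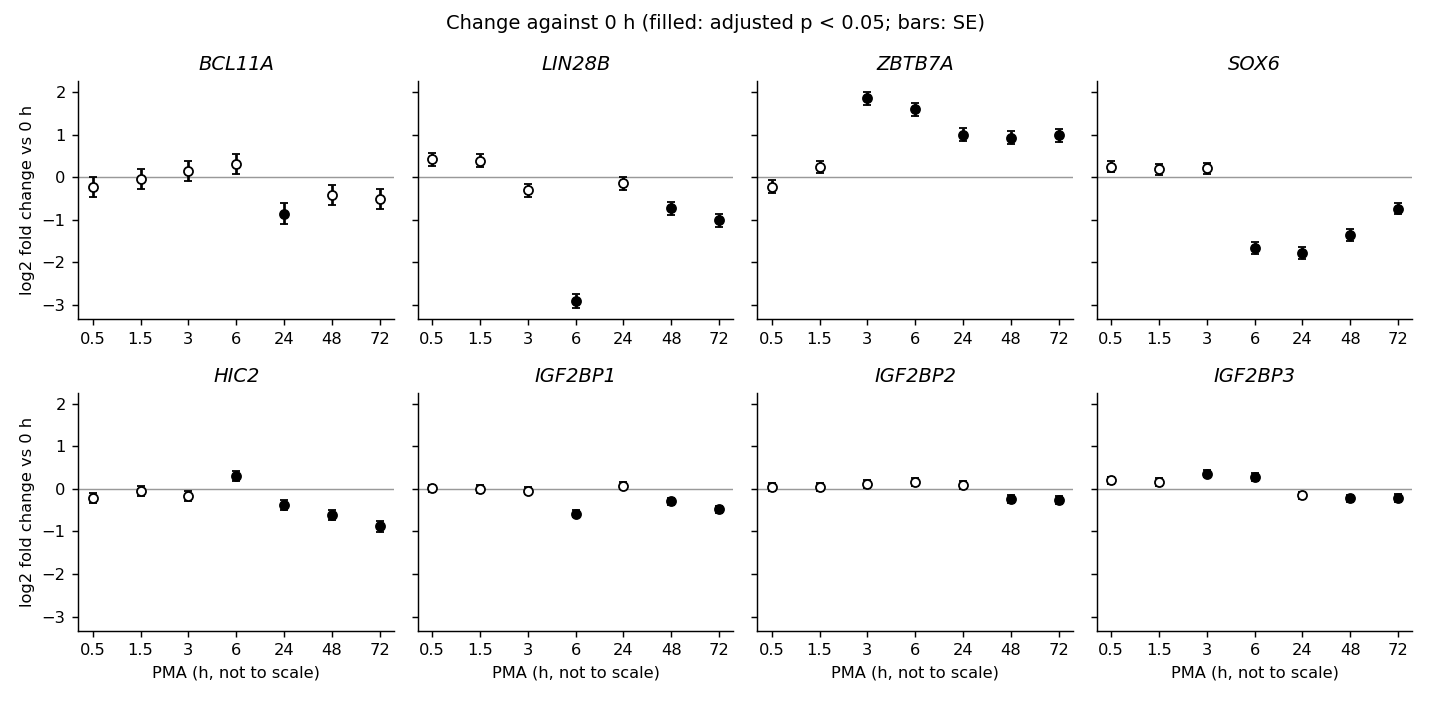
Log2 fold change of each gene against 0 h at 7 time points, with bars of 1 SE on a shared axis. Filled points passed an adjusted p of 0.05; from 24 h on, ZBTB7A has the only filled points above the line, between 0.92 and 1.00.

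Set side by side at 6 h, 3 genes were lower (LIN28B, SOX6, IGF2BP1), 3 higher (ZBTB7A, HIC2 and IGF2BP3, though with total-count scaling HIC2 was at log2 -0.05 and IGF2BP3 at -0.09) and BCL11A and IGF2BP2 were not called. At 72 h the 5 genes with a CTACCTCA site were all lower, at log2 -1.02 (LIN28B), -0.88 (HIC2), -0.48 (IGF2BP1), -0.27 (IGF2BP2) and -0.22 (IGF2BP3). With DESeq2's size factors the last 2 were not called (adjusted p = 0.0771 and 0.158). Of the 3 genes with no match in the transcript searched, SOX6 was lower, ZBTB7A was higher and BCL11A was not called. Among all tested genes, 26.9% were lower and 31.7% higher at 72 h. Of the other let-7 targets, given below, 5 rose and 5 fell at 72 h. Whether a let-7 site had a part in any of these changes was not tested. In a comparison free of the 0 h libraries, 72 h against 1.5 h, 7 of 8 were called (57.2% of all genes): ZBTB7A was higher (log2 0.74), and LIN28B (-1.41), SOX6 (-0.92), HIC2 (-0.84), IGF2BP1 (-0.48), IGF2BP3 (-0.38) and IGF2BP2 (-0.30) were lower. There IGF2BP2 was not called without the second 1.5 h or the first 72 h library (adjusted p = 0.112 and 0.108), nor IGF2BP1 with counts from TPM scaled by length (log2 -0.18, adjusted p = 0.153). From 24 to 72 h, 5 of 8 were called (26.3% of all genes): SOX6 rose, and LIN28B (log2 -0.88), IGF2BP1 (-0.55), HIC2 (-0.50) and IGF2BP2 (-0.35) fell. Without the second 24 h library 3 were called, with HIC2 at -0.40 (adjusted p = 0.0881) and IGF2BP2 at -0.20 (adjusted p = 0.302).

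The genes whose log2 CPM over the 16 libraries was most like that of each member were named from 11229 candidates, as a description: the libraries share depth and time points, and most genes moved over the course. OXNAD1 (Pearson r = 0.989), RTN4IP1 (0.988) and HIBADH (0.986) were most like LIN28B, DEDD2 (0.986), DIRAS1 (0.982) and SMURF1 (0.977) most like ZBTB7A, and NIBAN1 (0.984), PYGL (0.975) and MARCKS (0.971) most like SOX6. SSTR2 (0.966), NXN (0.962) and KCNK6 (0.957) were most like BCL11A, and CEP85 (0.959) and TNPO2 (0.949) were among those most like HIC2. MPZL1 (0.968) and MRPL18 (0.966) were among those most like IGF2BP1, with BTF3 (0.914), YJU2 (0.912) and PPIA (0.912) most like IGF2BP2, and HMGB1 (0.981), EIF3E (0.978) and BTAF1 (0.978) most like IGF2BP3.

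The globin genes are the targets of this pathway. Of 9 tested genes of the list (8 globins and the alpha-globin chaperone AHSP), 0 rose and 3 fell at 6 h (6 fell with total-count scaling), while 8 fell at 24 h and 6 at 72 h, with a median log2 fold change of -3.48 at 24 h and -1.54 at 72 h against -0.01 and -0.03 over all genes. HBG2, the fetal gamma-globin with the most reads, had 820.3 ± 119.7 CPM untreated, 849.1 ± 119.6 after 6 h, 447.1 ± 35.5 after 24 h and 632 ± 178.2 after 72 h. It fell at 24 h (log2 -0.88, adjusted p = 0.00255) and was not called at 72 h (log2 -0.38, adjusted p = 0.133). Its near-identical copy HBG1 likewise fell at 24 h (log2 -0.70, adjusted p = 0.00620) and was not called at 72 h, and reads of this pair cannot be fully told apart. The embryonic HBE1, the target of SOX6, went from 240.9 ± 43.0 CPM untreated to 69.05 ± 1.84 after 24 h (log2 -1.80, adjusted p = 8.39e-08) and 111.8 ± 12.0 after 72 h (log2 -1.11, adjusted p = 8.01e-06). AHSP went from 53 and 81 reads untreated to 0 and 1 after 72 h (adjusted p = 2.68e-07). Adult HBB had at most 4 reads in any library.

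BCL11A and ZBTB7A recruit the NuRD remodelling complex. Of its 13 genes, 6 rose and 2 fell at 6 h (3 and 7 with total-count scaling), 5 rose and 3 fell at 24 h (3 and 4), and 4 rose and 5 fell at 72 h (3 and 7), and the median log2 fold change at 72 h was -0.24. CHD4, its ATPase, went from 588.9 ± 37.0 to 1282 ± 89.3 CPM at 72 h (log2 1.12, adjusted p = 3.30e-07). Of 8 other co-repressors of globin, 3 rose and 5 fell at 6 h (1 and 5 with total-count scaling), 1 rose and 3 fell at 24 h (1 and 7), and 1 rose and 6 fell at 72 h (0 and 7; median log2 -0.43 as tested). DNMT1, the maintenance DNA methyltransferase, went from 326.2 ± 30.0 to 195.5 ± 3.27 CPM at 72 h (log2 -0.74, adjusted p = 1.33e-05).

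Among 13 other regulators of the switch, 3 rose and 9 fell at both 6 and 24 h, and 3 rose and 7 fell at 72 h (2 and 9 with total-count scaling), with medians of -0.82, -0.64 and -0.69. KLF1, which drives BCL11A and ZBTB7A expression in erythroid cells, went from 52.6 ± 12.5 to 1.37 ± 0.0105 CPM after 6 h (log2 -5.26, adjusted p = 7.77e-11) and 2.87 ± 0.0392 after 72 h (log2 -4.19, adjusted p = 1.96e-10). BACH1, a haem-responsive repressor of globin, went from 124.1 ± 23.3 to 247.1 ± 57.8 CPM at 72 h (log2 0.99, adjusted p = 0.000138). Of 10 let-7 processing genes, 3 rose and 5 fell at 6 h and 2 rose and 5 fell at 72 h (median log2 -0.16). TUT7, a terminal uridylyltransferase that marks let-7 precursors together with LIN28 proteins, went from 37.5 ± 7.25 to 116.5 ± 8.12 CPM at 72 h (log2 1.63, adjusted p = 3.39e-08). AGO2, which carries microRNAs, went from 314.3 ± 15.2 to 530.8 ± 35.3 CPM (log2 0.76, adjusted p = 1.15e-05).

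Of 15 other let-7 targets, 7 rose and 5 fell at 6 h (5 and 6 with total-count scaling), 7 rose and 4 fell at 24 h (6 and 6), and 5 of each at 72 h, with a median log2 of -0.10 at 72 h. TRIM71 went from 0 and 1 reads untreated to 124 and 82 reads after 72 h (adjusted p = 1.10e-05), and HMGA1, the target with the most reads, was not called at 72 h (1392 ± 292.8 against 1269 ± 294.4 CPM, adjusted p = 0.542). Of 5 RNAs known to be bound by IGF2BP proteins, 4 rose and 0 fell at 6 and 24 h, and 4 rose and 1 fell at 72 h (median log2 0.78). The 1 that fell, MYC, is named after its values were seen; it went from 148.6 ± 17.5 to 57.3 ± 10.8 CPM at 72 h (log2 -1.37, adjusted p = 2.92e-05). CD44, an adhesion receptor, went from 14.8 ± 0.608 to 4629 ± 273.7 CPM at 72 h (log2 8.29, adjusted p = 7.13e-14), and ACTB from 1925 ± 196.9 to 3312 ± 177.3 CPM (log2 0.78, adjusted p = 7.87e-05). Of 6 paralogs of the members, 2 rose and 1 fell at 6 h (1 and 2 with total-count scaling), and 3 rose and 1 fell at 72 h. ZBTB7C went from 0 reads in both 0 h libraries to 16 and 15 reads at 72 h, and ZBTB7B was not called at 72 h (adjusted p = 0.339). The 1 that fell, SOX5, which heterodimerises with SOX6, was named after its values were seen. It went from 29.6 ± 4.56 CPM untreated to 0.984 ± 0.540 after 6 h and 1.31 ± 0.124 after 72 h (log2 -4.50, adjusted p = 1.10e-09).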

How the data were processed

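The deposited tables list, per the file headers, an estimated count of reads and a TPM value for each of 177456 transcripts in a library. The submitters' processing notes name Trim Galore 0.4.3 and Salmon among other tools, and both hg19 and hg38, with no role given. Transcripts were assigned to genes by identifier with GENCODE 29 on GRCh38 (94.1% matched; 3.01 to 3.75% of reads did not), added up by gene and rounded to integers. TPM was summed per gene as deposited. Some main transcripts have another version in the tables than in GENCODE 29, so their lengths differ.

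The test was that of edgeR 4.0.16 (R 4.3.3), with TMM factors of 0.854 to 1.14, the default low-count filter (17559 genes), 1 fit of all 16 libraries, the quasi-likelihood F-test, and Benjamini-Hochberg adjustment within each comparison. Values are mean ± SD over 2 libraries, and SE belongs to log2 fold changes. Reads are PCR products, not single molecules. The test was checked on simulated counts.

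The members, lists and tests were chosen with earlier results of these data known. All 8 members are named. From each list the gene with the largest change at 72 h and that with the highest mean CPM are named, and for each member the 3 genes most like it among those with a mean of at least 5 CPM, of which 2 in all are not reported here. HBE1, HBG1, HBB, MYC, SOX5 and single markers were named after their values were seen. Alternatives were other size factors, total-count scaling, DESeq2 1.42.0, other filters, TPM-derived counts, the replicate number as a block, removal of a GC trend, a stricter threshold, fits of 2 time points, leaving out each library, and protein-coding transcripts only, the last added after seeing the data. The host genes of let-7, H19 and mature microRNAs are not analysed here.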

Additional observations from a re-analysis of the deposited data

How the results depend on the processing

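An alternative is listed here only where it moved the count to or from 0, or by more than 1.5-fold. Smaller moves are left out, such as those given above at 48 and 72 h with DESeq2's size factors. Against 0 h, the number of the 8 genes called was 0 at 0.5 h and 1 without the low-count filter. At 1.5 h it was 0, 1 without the filter, and 2 with the GC trend removed, with or without the replicate block. At 3 h it was 2, 4 with total-count scaling, and 1 with protein-coding transcripts only or with 2 time points in the fit. At 24 h it was 4, and 7 with total-count scaling. At 48 h it was 7, and 4 without the filter or with 2 time points in the fit. Between 0.5 and 1.5 h it was 0, then 1 without the filter, with the replicate block, with the GC trend removed, with both, or with DESeq2, and 2 with 2 time points in the fit. From 1.5 to 3 h it was 2, and 4 with total-count scaling or with the replicate block and the GC trend removed. From 24 to 48 h it was 3, then 1 without the filter, 5 with the GC trend removed (with or without the replicate block) and 0 at an adjusted p under 0.01. From 48 to 72 h it was 1, then 2 with the GC trend removed (with or without the replicate block), and 0 with TPM-derived counts, protein-coding transcripts only, 2 time points in the fit or an adjusted p under 0.01.

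Leaving out 1 library at a time gave 0 to 2 called for 0.5 h and for 1.5 h against 0 h, 2 to 3 for 3 h, 4 to 6 for 6 h, 3 to 5 for 24 h, 4 to 7 for 48 h and 5 to 7 for 72 h. It gave 0 to 0 from 0.5 to 1.5 h, 0 to 4 from 24 to 48 h, 0 to 1 from 48 to 72 h, 3 to 5 from 24 to 72 h, 6 to 8 for 72 h against 1.5 h, and 8 over the whole course. The 2 called at 0.5 and at 1.5 h came without the first 0 h library, the 4 at 48 h without either 48 h library, and the 0 from 24 to 48 h without the second 24 h or either 48 h library. Total-count scaling moved the median of all genes to -0.12 (log2) after 1.5 h, -0.28 after 3 h, -0.35 after 6 h, -0.26 after 24 h and -0.19 after 72 h. It reversed HIC2 (-0.05) and IGF2BP3 (-0.09) at 6 h against 0 h; the cause was not tested. CPM divided by effective length kept the order by TPM but for IGF2BP1 and its 2 paralogs at 0.5, 1.5, 6 and 72 h. Deviations of libraries sharing a replicate number correlated weakly (-0.118 to 0.211, median 0.0978, 14 of 28 pairs over 0.1), short of every pair, so the numbers were not taken as pairing. The median gap between length and effective length, set by fragment size, was larger in the second library at all 7 PMA times (229.4 to 248.4 nt against 210 to 221.1 nt) and smaller at 0 h (199.2 against 217.1 nt). Its part in the results was not tested. By the limit stated above, the replicate block alone moved the count only for 1.5 against 0.5 h, to 1. Depth limits BCL11A most, at 89 to 186 reads in a library.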
